A study of Danio rerio with 4 samples.

Results

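muc5.1 and ca6 are a pair of zebrafish genes for secreted proteins, a gel-forming mucin and a carbonic anhydrase, and they are 2 of the 32520 genes in the deposited count table. They were chosen by their counts, for being well counted and higher in asxl1-/- than in asxl1+/+ embryos, so their values in the contrast between the genotypes are given as a description, with no test. Their identifiers were taken from the study's table of changed genes, ENSDARG00000070331 for muc5.1 and ENSDARG00000056499 for ca6. The RNA-seq data comprised 4 libraries, 2 of asxl1-/- and 2 of asxl1+/+ embryos, named replicates A and B within each genotype. All embryos came from crosses between asxl1+/- parents on an AB background, were 3 dpf (days postfertilization) and received no treatment. The asxl1-/- embryos carried a CRISPR/Cas9 deletion within asxl1, predicted to remove the C-terminal end of the protein, on both copies of the gene, and the asxl1+/+ embryos carried none. The study made more than 1 such allele and presents one of them unless it says otherwise, while the labels of the libraries name none. Each library was a pool of about 20 tails that included the caudal hematopoietic tissue, where blood stem and progenitor cells expand, so values of single embryos were not measured.

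Gel-forming mucins are very large glycoproteins that are packed into granules of mucous (goblet) cells and, once released, take up water to form the mucus over skin, gut and airway. Their protein backbone is loaded with O-linked sugars, and the mucous cells of fish skin cover the embryo with such a layer. Carbonic anhydrases interconvert carbon dioxide and bicarbonate, and Ca6 is the secreted member of the family, known from saliva and milk in mammals. Asxl1 is a chromatin regulator linked to Polycomb genes.

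The asxl1-/- libraries held 19423797 and 20027260 counts in total and the asxl1+/+ libraries 22963847 and 26281738, so the asxl1-/- libraries were the less deep ones. Levels are in CPM, where each count is scaled to a common library total with TMM factors of 0.990 to 1.01. asxl1 itself, on chromosome 23, had 57.2 and 57.6 CPM in asxl1-/- and 65.4 and 65.3 CPM in asxl1+/+. It was lower in both asxl1-/- libraries, with a log2 fold change of -0.19 (SE 0.08) that was not called (FDR 1.0, edgeR quasi-likelihood test). An FDR is the Benjamini-Hochberg adjusted p over the 19970 genes that passed a filter on low counts, and a gene was called below 0.05. The labels do not say whether the pools came from separate clutches, so these p-values measure the spread between pools. Of the 19970 genes, 12 were called between the genotypes (0.0601%), 7 higher and 5 lower in asxl1-/-. Both muc5.1 and ca6 were among the 7, and this contrast had selected them. Without asxl1+/+ replicate A, 9 genes were called and neither was among them, while 67 were called without asxl1-/- replicate A and 80 without asxl1-/- replicate B. Skeletal muscle transcripts were abundant: 10 skeletal muscle genes summed to 96035 and 97189 CPM in asxl1-/- and 99023 and 100361 CPM in asxl1+/+.

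muc5.1 spans 8356707 to 8400166 on the plus strand of chromosome 25 (GRCz11), with 46 exon blocks and 16267 exonic bases. It collected 3249 and 3364 counts in asxl1-/- and 2581 and 2869 counts in asxl1+/+. Both asxl1-/- libraries thus held more muc5.1 counts than both asxl1+/+ libraries even before scaling, although they were less deep. Relative to depth, muc5.1 had 165 and 169 CPM in asxl1-/- (mean 167 ± 2.81, SD, n = 2) and 112 and 110 CPM in asxl1+/+ (mean 111 ± 1.09, SD, n = 2). The ratio of the means was 1.51, and the fitted log2 fold change was 0.59 (SE 0.07). Each of the 4 pairs of an asxl1-/- with an asxl1+/+ library gave a log2 difference between 0.56 and 0.62. Between libraries of the same genotype, B over A, it was 0.03 in asxl1-/- and -0.02 in asxl1+/+, close to the counting error of 1.72% to 1.97% of a count. The replicates of a genotype lay close together and the genotypes far apart, which partly restates the choice of muc5.1.

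ca6 spans 22634442 to 22650992 on the minus strand of chromosome 23, with 10 exon blocks and 2844 exonic bases. It collected 3864 and 3674 counts in asxl1-/- and 2990 and 3298 counts in asxl1+/+. As for muc5.1, the raw counts alone separated the genotypes. ca6 had 197 and 185 CPM in asxl1-/- (mean 191 ± 8.29, SD, n = 2) and 130 and 127 CPM in asxl1+/+ (mean 128 ± 1.96, SD, n = 2). The ratio of the means was 1.49, and the fitted log2 fold change was 0.57 (SE 0.07). The log2 differences of the 4 pairs ran from 0.51 to 0.63, a wider range than for muc5.1. The wider range came from the asxl1-/- libraries, where the log2 difference of replicate B from A was -0.09, against -0.03 in asxl1+/+ and a counting error of 1.61% to 1.83% of a count. In pooled tails, a higher level from more cells that make a transcript and one from more transcript per cell cannot be told apart, nor can fewer cells and less transcript per cell.

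**Figure D1:**
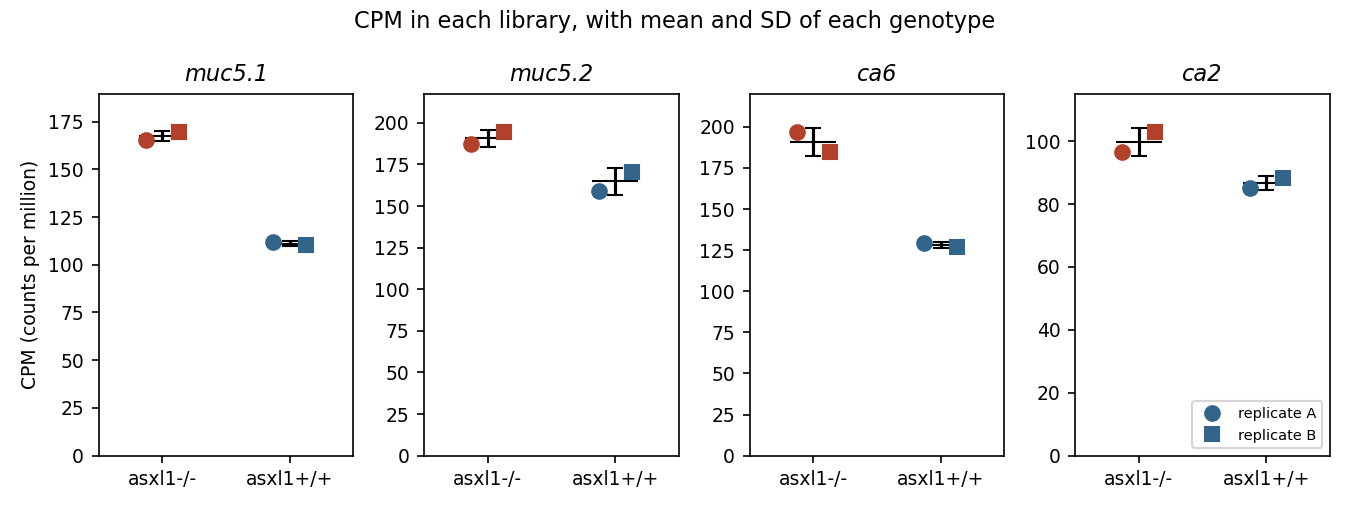
CPM (linear axis from 0) of muc5.1 and ca6, each beside its best-counted relative (muc5.2 and ca2), in the asxl1-/- libraries (red, left) and asxl1+/+ libraries (blue, right). Circles are replicate A, squares replicate B, and black lines the mean and SD of 2 libraries. muc5.1 lies at 165 and 169 CPM in asxl1-/- and at 112 and 110 CPM in asxl1+/+, and the gap between the genotypes is narrower for muc5.2 and ca2.

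Both genes were counted deeply. By mean CPM over the 4 libraries, ca6 ranked 614 and muc5.1 ranked 712 among the 19970 genes tested. Set per kilobase of exon, which makes genes of unequal length comparable, they stood far apart. ca6 had 69.2 and 65.0 CPM per kb in asxl1-/- and 45.6 and 44.6 CPM per kb in asxl1+/+, and ranked 713. muc5.1 had 10.17 and 10.41 CPM per kb in asxl1-/- and 6.88 and 6.78 CPM per kb in asxl1+/+, and ranked 4835. The long mucin transcript therefore collected many counts at a moderate level per length. The ratio of muc5.1 to ca6 counts within a library was 0.841 and 0.916 in asxl1-/- and 0.863 and 0.870 in asxl1+/+, so it overlapped between the genotypes.

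The plot of CPM by library sets each gene beside the relative with the most CPM. Both relatives are also in the study's table of changed genes. muc5.2 (ENSDARG00000058556), a second gel-forming mucin that starts 7.73 kb beyond the end of muc5.1 on the same strand, had 187 and 194 CPM in asxl1-/- and 159 and 171 CPM in asxl1+/+. Its genotypes did not overlap either, but its log2 fold change was 0.21 (SE 0.07) and it was not called (FDR 1.0, edgeR quasi-likelihood test). Within each library, muc5.1 had 0.884 and 0.872 counts per count of muc5.2 in asxl1-/- and 0.703 and 0.647 in asxl1+/+, a ratio that needs no scaling between libraries. Per kilobase of exon, muc5.1 and muc5.2 were at a similar level in asxl1-/-, where muc5.2 had 9.98 and 10.4 CPM per kb. In asxl1+/+ muc5.1 lay below muc5.2, which had 8.48 and 9.09 CPM per kb. Reads that fit more than 1 place were left uncounted, and how many such reads these related genes share was not analysed here.

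ca2, a cytosolic carbonic anhydrase, had 96.7 and 103 CPM in asxl1-/- and 85.1 and 88.2 CPM in asxl1+/+. Its log2 fold change was 0.20 (SE 0.07) and it was not called (FDR 1.0, edgeR). Within each library, ca6 had 2.03 and 1.80 counts per count of ca2 in asxl1-/- and 1.52 and 1.44 in asxl1+/+. Per kilobase of exon, ca2 had 66.4 and 70.6 CPM per kb in asxl1-/-, overlapping ca6, and 58.4 and 60.6 CPM per kb in asxl1+/+, above ca6. By level per length, in both pairs the selected gene was lower than its relative in asxl1+/+ and overlapped it in asxl1-/-. muc5.1 and ca6 were chosen for being higher in asxl1-/-, so this order and the ratios to their relatives partly restate that choice. They are given as a description.

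Genes near muc5.1 were examined by position, which the choice of muc5.1 did not use. Within 200 kb of muc5.1 the table lists 12 other genes, of which 8 passed the filter and 3 had 0 counts in all libraries. None of the 8 was called in the edgeR quasi-likelihood test, where 0.0601% of all genes tested were called. At an unadjusted p below 0.05 there was 1 (3.08% of all genes tested). The edgeR exact test, which called 0.265% of all genes tested, and DESeq2, which called 0.135%, called 0 of the 8. muc5.2 was the only one with more than 176 counts in any library. Their log2 fold changes ran from -0.26 to 0.40, 5 above and 3 below 0. Their median was 0.16, beside 0.00075 over all genes tested. The tilt did not hold in a wider window: within 500 kb, 22 genes were tested, 10 above and 12 below 0, with a median of -0.03. Of the 8, 3 were higher in both asxl1-/- than in both asxl1+/+ libraries (15.4% of all genes tested) and 1 was lower (14.6%). The higher ones were muc5.2, SAAL1 with a log2 fold change of 0.16 and si:ch73-166c6.1 with 0.40. si:ch73-166c6.1 was thinly counted, with at most 28 counts in a library and an SE of 0.31. The lower one was RHCG, an ammonium transporter gene, with -0.26. RHCG had 4.89 and 5.59 CPM in asxl1-/- and 5.85 and 6.65 CPM in asxl1+/+. The genotypes overlapped for TPH1 (-0.11), FANCI (0.16), POLG (-0.05) and si:ch73-166c6.2 (0.18). The FDR was 1.0 for each of the 8. Another gel-forming mucin gene, muc2.2, lies 4.93 kb before muc5.1 and had 0 counts in all 4 libraries, which allows up to 0.153 CPM (3 counts) in a library. Of these adjacent mucin genes muc5.1 and muc5.2 were detected in the tail. In the RefSeq gene order of the GRCz12tu assembly muc5.2 also directly follows muc5.1.

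**Figure D2:**
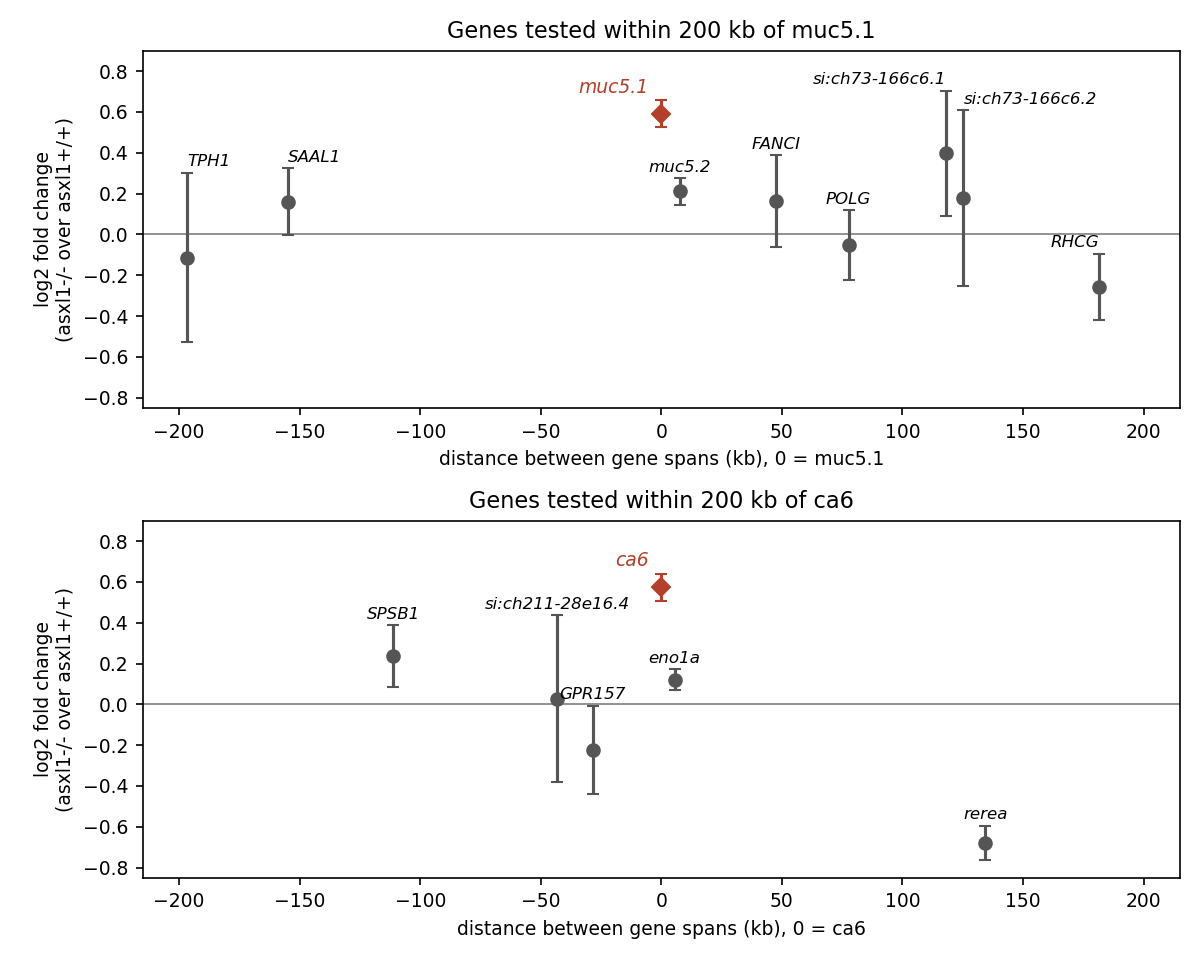
Fitted log2 fold change of asxl1-/- over asxl1+/+ (vertical axis, bars are SE) against the distance in kb between gene spans (horizontal axis) for the genes tested within 200 kb of muc5.1 (upper panel) and of ca6 (lower panel); the red diamonds are muc5.1 and ca6. The 8 genes around muc5.1 lie between -0.26 and 0.40 and muc5.1 at 0.59, while around ca6 (0.57) the gene rerea lies at -0.68.

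Around ca6 the table lists 9 other genes within 200 kb, of which 5 passed the filter. Of the 5, 1 was called (0.0601% of all genes tested): rerea, which was lower in asxl1-/-. It had 31.8 and 32.8 CPM in asxl1-/- and 50.2 and 53.1 CPM in asxl1+/+. The exact test (0.265% of all genes tested) and DESeq2 (0.135%) each called 1 of the 5, rerea. An unadjusted p below 0.05 was found for 2 (3.08% of all genes tested). The log2 fold change of rerea, which lies 134 kb from ca6, was -0.68 (SE 0.08, FDR 0.0259, edgeR), and without asxl1+/+ replicate A no neighbour of ca6 was called. eno1a, the gene of the glycolytic enzyme enolase, lies 5.49 kb from ca6 and had 568 and 556 CPM in asxl1-/- and 514 and 519 CPM in asxl1+/+. Its log2 fold change was 0.12 (SE 0.05) and it was not called. The others were SPSB1 with 0.24, GPR157 with -0.22 and a gene with only a clone name with 0.03, none of them called (FDR 1.0, edgeR), and the median of the 5 was 0.03. SPSB1 and eno1a were higher without overlap (15.4% of all genes tested) and rerea was lower (14.6%). For SPSB1 this was nearly a tie, with 9.774 CPM in asxl1-/- replicate A and 9.768 CPM in asxl1+/+ replicate B. In the plot of fold change against distance, genes on both sides of 0 lie around muc5.1 and around ca6.

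ca6 lies on the chromosome of asxl1, 8.08 Mb from it. Of the 12 genes called, 9 were on chromosome 23 (1.17% of 770 genes tested there, beside 0.0601% of all genes tested). All 9 were between 15 and 35 Mb, where they made up 2.54% of 355 genes tested. These bounds were chosen with earlier results of these libraries known, so the place of the 9 within them is not independent evidence. ca6 was among the 9, of which 4 were higher in asxl1-/-. The median log2 fold change of the 355 genes was 0.01. Embryos sorted by their asxl1 genotype also share sequence linked to it, so for ca6 and rerea the mutation and linked sequence cannot be told apart in this design. muc5.1 lies on chromosome 25.

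The other members of both families were read from lists written with earlier results of these libraries known, including the study's table of changed genes, so their directions are not independent evidence. Of 10 mucin names 6 matched an identifier, and 3 besides muc5.1 were tested. The edgeR quasi-likelihood test called 0 of them, as did the exact test and DESeq2, and 1 had an unadjusted p below 0.05. Of all genes tested, the quasi-likelihood test called 0.0601%, the exact test 0.265% and DESeq2 0.135%, and 3.08% had an unadjusted p below 0.05. The membrane mucins muc13b and muc13a had at most 113 counts in a library, with log2 fold changes of -0.13 and -0.06, and muc5.3 had at most 6 counts in a library. Of 20 carbonic anhydrase names 14 matched, and 10 besides ca6 were tested, with the same counts of 0 called by each tool and 1 at an unadjusted p below 0.05. Of these 10, 4 were above and 6 below 0, with a median log2 fold change of -0.08. The red cell enzyme cahz had 37.5 and 33.1 CPM in asxl1-/- and 35.3 and 28.3 CPM in asxl1+/+ (log2 fold change 0.15). The mean of the membrane-bound ca15a was 15.1 CPM (SD 1.66) in asxl1-/- and 16.1 CPM (SD 1.56) in asxl1+/+, a log2 fold change of -0.09. Both overlapped between the genotypes.

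Genes of mucous cells and of mucin glycosylation lay mostly above 0, some by very little. None was called in the edgeR quasi-likelihood test (0.0601% of all genes tested) or by DESeq2 (0.135%). The exact test called 1, agr2 (0.265% of all genes tested), and 3 had an unadjusted p below 0.05 (3.08%). Of 15 names 12 matched and were tested, 11 with a positive and 1 with a negative log2 fold change, with a median of 0.13. Of the 12, 5 were higher without overlap (15.4% of all genes tested). One of them, GCNT3, named after its values were seen, was barely counted and nearly tied. It had 0.662 and 0.806 CPM in asxl1-/- and 0.607 and 0.654 CPM in asxl1+/+. This list, like the others, was written with earlier results of these libraries known, and 3 of the 12 are in the study's table of changed genes. The directions are therefore not independent evidence. The 12 genes summed to 202 and 195 CPM in asxl1-/- and 177 and 165 CPM in asxl1+/+. galnt6, an enzyme that starts O-linked sugar chains, had 32.5 and 33.1 CPM in asxl1-/- and 24.2 and 24.4 CPM in asxl1+/+. Its log2 fold change was 0.43 (SE 0.09, FDR 0.289, edgeR). Like ca6, galnt6 lies on chromosome 23 between 15 and 35 Mb, where the mutation and linked sequence cannot be told apart. agr2, a disulfide isomerase that zebrafish mucous cells need to mature, had 22.4 and 16.2 CPM in asxl1-/- and 11.4 and 11.7 CPM in asxl1+/+, a log2 fold change of 0.74 (SE 0.16, FDR 0.310, edgeR). agr2 is named after its values were seen. GALNT7, a related sugar transferase, had 60.2 and 59.1 CPM in asxl1-/- and 60.0 and 55.0 CPM in asxl1+/+, overlapping between the genotypes, as did the secretory regulator CREB3L1 with a log2 fold change of 0.12. SPDEF, which drives mucous cell fate in mammals, was named after its values were seen and was barely counted, at 0.305 and 0.655 CPM in asxl1-/- and 0.477 and 0.577 CPM in asxl1+/+. The part of mucous cell number in the muc5.1 and ca6 values was not tested.

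**Figure D3:**
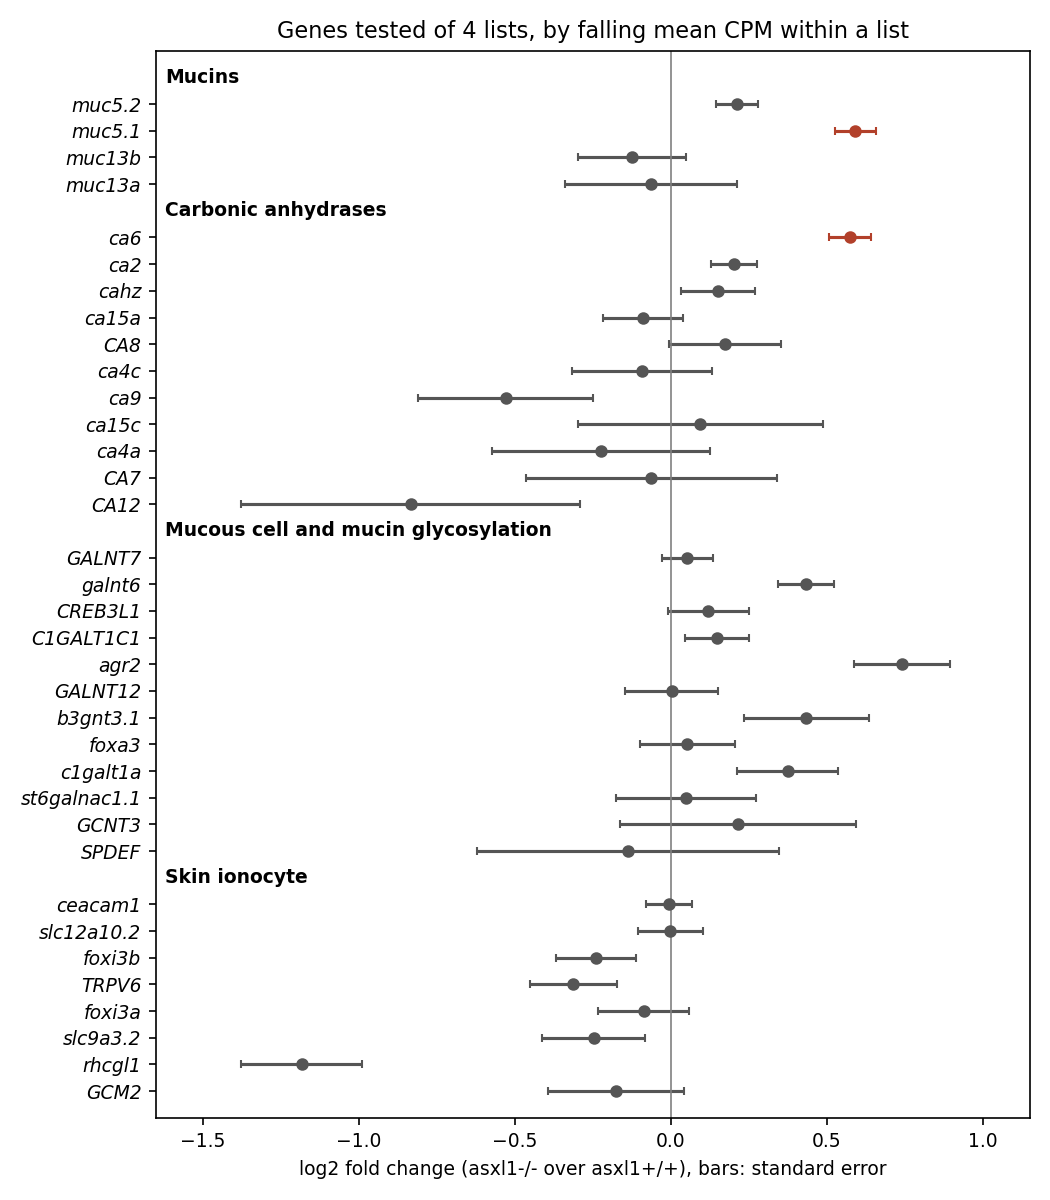
Fitted log2 fold change of asxl1-/- over asxl1+/+ (horizontal axis, bars are SE) for the tested genes of the mucin, carbonic anhydrase, mucous cell and skin ionocyte lists (rows, by falling mean CPM within a list); muc5.1 and ca6 are red. The other 10 carbonic anhydrases fall on both sides of 0. Of the mucous cell genes, 11 of 12 lie above 0, and the 8 ionocyte genes lie below 0, in both lists some by very little.

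Markers of other cell types, not all of them cells of the tail, were summed in the same way. The edgeR quasi-likelihood test called 1 of these markers in all. That test called 0.0601% of all genes tested. For skin ionocytes, the ion-transporting cells of the embryonic skin that also use carbonic anhydrase, 8 of 9 matched genes were tested and none was called. The exact test called 1 and DESeq2 0, and 2 had an unadjusted p below 0.05. Of all genes tested, these shares were 0.265%, 0.135% and 3.08%. Of the 8, 0 were positive and 8 negative, with a median log2 fold change of -0.21. The 9 matched genes summed to 197 and 197 CPM in asxl1-/- and 218 and 199 CPM in asxl1+/+. Of the 8 tested, 4 were lower without overlap (14.6% of all genes tested). Among them ceacam1 had 112 and 107 CPM in asxl1-/- and 114 and 106 CPM in asxl1+/+. The ammonium transporter gene rhcgl1, named after its values were seen, had 2.04 and 2.11 CPM in asxl1-/- and 4.51 and 4.92 CPM in asxl1+/+ (log2 fold change -1.18, SE 0.19, FDR 0.114, edgeR). For the surface epidermis, 19 of 20 were tested and none was called (exact test 1, DESeq2 1, unadjusted p below 0.05 in 6, beside 0.265%, 0.135% and 3.08% of all genes tested). Of the 19, 10 were positive and 9 negative, with a median of 0.00085. Its genes summed to 43405 and 44633 CPM in asxl1-/- and 44926 and 46805 CPM in asxl1+/+, mostly from the keratin krt4, whose log2 fold change was -0.01. Epidermal genes were thus split between the directions, with 7 higher and 4 lower without overlap (15.4% and 14.6% of all genes tested).

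The remaining lists gave the setting of these 2 genes. Neutrophil genes (8 of 8 tested) had a median log2 fold change of -0.37 and summed to 110 and 101 CPM in asxl1-/- and 113 and 135 CPM in asxl1+/+. Of the 8, 2 were positive and 6 negative. MMP9 (0.27) and mmp13a (0.65) were higher without overlap, 2 of 8 (15.4% of all genes tested). lyz, mpx, npsn and srgn were lower without overlap, 4 of 8 (14.6%). The study called these 4 lower with the edgeR exact test at an FDR below 0.05. It also found lyz and mpx reduced by in situ hybridization and qRT-PCR. Beyond transcripts, it reported fewer neutrophils by Sudan Black staining and a lower share of mature neutrophils by morphology in asxl1-/- embryos. The study names lyz, mpx, npsn and srgn as neutrophil markers. It reports mmp13a apart from them, as an upregulated matrix metalloproteinase gene, whereas the list here, its sum and its median include mmp13a. None of the 8 was called here by the quasi-likelihood test or DESeq2. The exact test as run here called 1, and 6 had an unadjusted p below 0.05. Over all genes tested the exact test called 53 here, against 294 in the study, and the cause of that difference was not tested. To set beside each list here, the shares over all genes tested were 0.0601% (quasi-likelihood test), 0.135% (DESeq2), 0.265% (exact test) and 3.08% (unadjusted p). Erythrocyte genes had a median of 0.18 (6 tested, 0 called by each tool and at an unadjusted p below 0.05). Melanophore genes had a median of -0.23 (5 tested, 0 called by each tool, 3 at an unadjusted p below 0.05). Of the 5, 0 were positive and 5 negative, and 4 were lower without overlap (14.6% of all genes tested). Liver genes had a median of -0.06 (10 tested, 0 called by the quasi-likelihood test, 3 by the exact test, 1 by DESeq2, 5 at an unadjusted p below 0.05). The liver gene fabp10a, named after its values were seen, did not pass the filter, with at most 3 counts in a library. Which cells gave the counts of the 10 was not tested. Muscle genes had a median of 0.07 (10 tested, 1 called by each tool, 6 at an unadjusted p below 0.05), with 4 higher and 2 lower without overlap (15.4% and 14.6% of all genes tested). Of these, tcap, a sarcomere gene named after its values were seen, was called higher in asxl1-/- (log2 fold change 2.14, SE 0.25, FDR 0.0211, edgeR). Exocrine pancreas genes were lower without overlap in 10 of 10 tested (14.6% of all genes tested), with a median of -2.71, which did not change with ctrb1, at 0 counts in both asxl1-/- libraries, set to its bound. Of the 10, the quasi-likelihood test called 0, the exact test 6 and DESeq2 2, and 10 had an unadjusted p below 0.05, beside 0.265% (exact test), 0.135% (DESeq2) and 3.08% (unadjusted p) of all genes tested. The 11 matched pancreas genes, tested or not, summed to 5.14 and 4.13 CPM in asxl1-/- and 14.5 and 36.5 CPM in asxl1+/+. Their part in the muc5.1 and ca6 values was not tested, nor was that of the other lists.

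The replicate letters split the libraries within each genotype. A gene picked from those past a threshold between the genotypes tends to vary little within them, so the letter values of muc5.1 and ca6 are also given as a description. Between the B and A libraries, with genotype as a covariate, 1703 of the 19970 genes tested were called (8.53%, edgeR quasi-likelihood test), and nothing is read from muc5.1 and ca6 not being among them. The log2 difference of muc5.1, B over A, was 0.01 (SE 0.05, 95% interval -0.08 to 0.10). That of ca6 was -0.06 (SE 0.05, 95% interval -0.15 to 0.03).

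The genes whose levels over the 4 libraries were most like each of the pair were found by the root mean square difference of log2 CPM, each gene set to its own mean, among 9382 genes with a mean of at least 10 CPM over the 4 libraries. For muc5.1 the nearest were hspb11 (0.03), si:dkey-205h13.2 (0.03), hspb1 (0.03), ca6 (0.04) and si:dkey-65b12.6 (0.05), against a median of 0.31 over the genes compared. For ca6 they were hspb1 (0.04), muc5.1 (0.04), lgals1l1 (0.05), zgc:100832 (0.06) and si:dkey-205h13.2 (0.06), against a median of 0.30. ca6 thus ranked 4 for muc5.1, and muc5.1 ranked 2 for ca6, though both were selected for the same direction. hspb1 encodes a small heat shock protein and had 45.2 and 44.7 CPM in asxl1-/- and 30.9 and 28.7 CPM in asxl1+/+. lgals1l1, a galectin gene from the epidermis list, had 201 and 182 CPM in asxl1-/- and 137 and 137 CPM in asxl1+/+. With 4 libraries these similarities largely restate the gap between the genotypes. hspb11 and zgc:100832 were below 10 CPM in both asxl1+/+ libraries and entered through their asxl1-/- levels. si:dkey-205h13.2 and zgc:100832 also lie on chromosome 23.

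**Figure D4:**
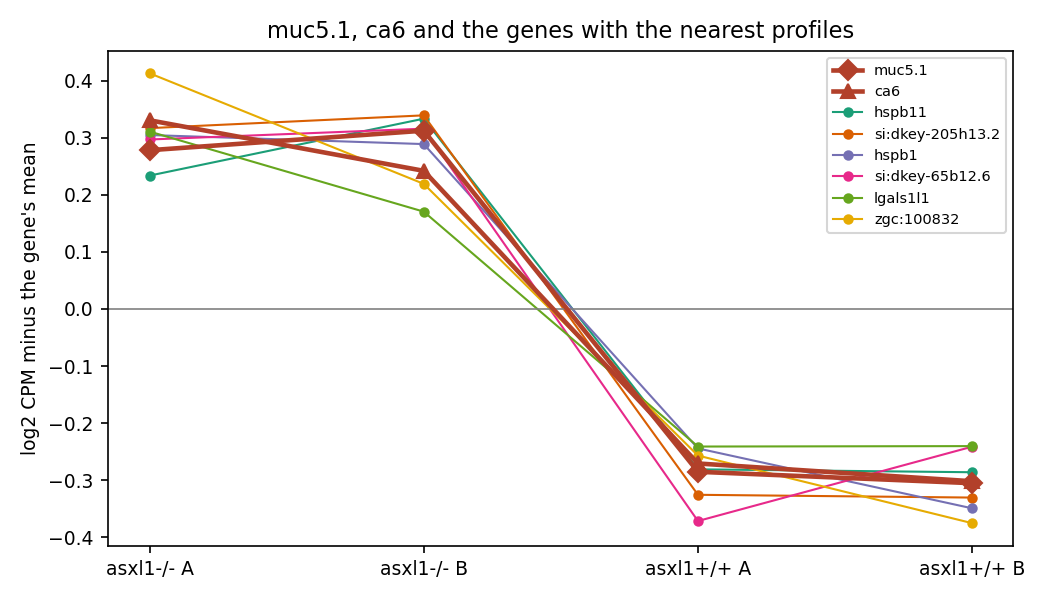
Log2 CPM minus the gene's own mean over the 4 libraries (vertical axis) in the asxl1-/- and asxl1+/+ libraries (horizontal axis) for muc5.1, ca6 (thick red lines) and the 6 other genes nearest to either. Every line lies above 0 in both asxl1-/- libraries and below 0 in both asxl1+/+ libraries.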

How the data were processed

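Tails of 3 dpf embryos were sequenced in 4 libraries, grouped by the genotype in their labels. The paper describes poly-A selected RNA and the labels total RNA. The authors mapped read pairs to GRCz11 with STAR, counted them per gene with featureCounts 1.6.4 on Ensembl release 96 exons, ignoring strand and multi-mapping reads, and deposited raw counts, without a filter, and exonic lengths. muc5.1 and ca6 share no exon with another gene.

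Counts were fitted in R 4.3.3 with edgeR 4.0.16 (TMM, filterByExpr by genotype, quasi-likelihood test, FDR below 0.05); an SE is the log2 fold change over the square root of F. The authors used the edgeR exact test. It, DESeq2 1.42.0, a replicate block, no TMM factors, other filters, windows and thresholds, and each library left out were alternatives. The fits were also run on simulated counts with the same spread setting for every gene, so that run does not show how the fits behave on these libraries. The precision is limited by 2 libraries per genotype. The smallest two-sided p of an exact permutation with these libraries is 0.333. Names came from the study's table of 294 genes, then from a gene name table (29207 identifiers named), some in the capitals of human genes. Named are the pair, named neighbours that were tested, up to 4 genes of each list by mean CPM, and the 5 nearest profiles. The genes and lists were chosen with earlier results of these data known. Python 3.11.15, pandas 2.3.3 and matplotlib 3.10.9 served for tables and plots.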

Additional observations from a re-analysis of the deposited data

How the results depend on the processing

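The log2 fold changes of muc5.1 and ca6 kept their direction under every alternative run and ranged from 0.57 to 0.61 and from 0.53 to 0.62 when each library was left out in turn. Without asxl1+/+ replicate A, neither was below the FDR threshold. The number of genes called between genotypes was 12, against 53 with the edgeR exact test, 27 with DESeq2, 19 with no filter on low counts and 2 at an FDR below 0.01. It was 9 to 80 when each library was left out, with 80 without asxl1-/- replicate B and 67 without asxl1-/- replicate A. A lone library was then assumed to vary like those of the other genotype. Before adjustment, 616 genes had a p below 0.05. The labels do not say what libraries of a letter share. Deviations of same-letter libraries from their genotype means correlated at 0.27 across genes, which are not independent, and the first principal component (41.9% of variance) separated A from B. With the replicate block 301 genes were called, and the count of muc5.1 neighbours called was 1 (muc5.2) in place of 0. It was 0 under all other alternatives run. The count of ca6 neighbours called was 1 (rerea), 0 to 1 when each library was left out (0 without asxl1+/+ replicate A), 0 within 100 kb and 2 within 500 kb (rerea and noc2l, noc2l being named after its values were seen). The log2 difference of muc5.1 between letters was 0.0078, and -0.017 with library totals without TMM factors; neither was called. That test could not be run with a library left out, since no residual degrees of freedom remained. The cause of these changes was not tested, apart from the windows, which hold fewer or more genes.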
